A study of Mus musculus with 48 samples.

Results

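The 7 genes followed here, which FGF receptors and the kinase ERK are known to induce, were measured in the kidney RNA of a mouse model of X-linked hypophosphatemia: Dusp6, Etv5, Etv4, Spry1, Spry2, Spry4 and Spred1. The members were every probe set annotated to these 7 symbols on 2 Affymetrix chips, 21 probe sets of the 45137 that are not controls, for 7 of 18193 named genes. The study crossed genotype, diet and sex. Hyp mice, in which X-linked Phex is mutated, were set against normal mice. Hyp males were hemizygous (Hyp/Y), Hyp females heterozygous (Hyp/+), and a low phosphorus diet or a control diet was fed for 3 days from 10 weeks of age. The 8 groups were Hyp males on low phosphate, Hyp males on control, Hyp females on low phosphate, Hyp females on control, and the same 4 of normal mice. Each group had 3 pools of kidney RNA from 3 mice each, so 72 mice gave 24 pools and, on the 430A and 430B chips, 48 arrays. C57BL/6J is the strain named in the labels, in the entry of 1 sample. The mutation is present in every cell of the animal, and whole kidney was measured, so fewer cells of a type and less RNA per cell cannot be told apart. The replicates were pools, and the p-values measure the spread between pools, not between single mice.

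Values are the deposited signal intensities, on a linear scale whose unit is arbitrary. The median signal of an array was 164.7 to 211.2 for the 430A chip, and for the 430B chip 50.9 to 68.3. The number of arrays limits the precision. Phex itself gave no check of the genotype, because both of its probe sets lay under the array's median on all 24 arrays (1.2 to 30.4 in Hyp pools and 1.5 to 49.8 in normal pools). The sex labels were borne out by the X-linked Xist (log2 difference of male over female pools -3.84 ± 0.14, SE) and the Y-linked Eif2s3y (6.61 ± 0.15). Kidney markers were bright in both genotypes: the summed signal of 4 proximal tubule genes was 24467 to 34631 in Hyp pools and 31417 to 39125 in normal pools, and that of 4 thick ascending limb genes was 30239 to 36423 in Hyp pools and 28068 to 37220 in normal pools.

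FGF ligands bind receptor tyrosine kinases and, through adaptor proteins, RAS, RAF and MEK, activate ERK, which enters the nucleus and switches on target genes. A set of these targets feeds back on the pathway: Dusp6 encodes a phosphatase that removes phosphate from ERK, the Sprouty genes Spry1, Spry2 and Spry4 encode inhibitors that act between the receptor and RAF, and Spred1 encodes a protein that brings neurofibromin to RAS. Etv4 and Etv5 encode ETS transcription factors of the PEA3 group that carry the signal onward. In the kidney the hormone FGF23, which is raised in the blood of Hyp mice, acts through FGF receptors with the coreceptor Klotho (gene Kl) and lowers phosphate uptake and vitamin D activation. Other growth factors use the same kinases, so these genes are not particular to FGF.

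The promoters of the 3 genes whose transcripts differed by genotype are printed here, since those transcripts rose in the same comparison and ETS factors, which ERK phosphorylates, bind a GGAA core. Each run is 250 bases before to 50 after a RefSeq start, in assembly GRCm38.p6, read 5′ to 3′ along the gene's strand. Capitals mark each GGAAG on that strand or, as CTTCC, on the opposite strand. A GGAA core followed by another base was neither marked nor counted.
Dusp6, chr10:99262981-99263280, plus strand: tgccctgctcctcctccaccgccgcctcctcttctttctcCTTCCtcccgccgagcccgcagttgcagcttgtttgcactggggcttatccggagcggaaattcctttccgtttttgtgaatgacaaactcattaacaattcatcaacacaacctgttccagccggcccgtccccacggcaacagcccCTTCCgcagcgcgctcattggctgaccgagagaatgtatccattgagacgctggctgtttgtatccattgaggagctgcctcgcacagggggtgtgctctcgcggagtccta
Etv5, chr16:22439521-22439820, minus strand: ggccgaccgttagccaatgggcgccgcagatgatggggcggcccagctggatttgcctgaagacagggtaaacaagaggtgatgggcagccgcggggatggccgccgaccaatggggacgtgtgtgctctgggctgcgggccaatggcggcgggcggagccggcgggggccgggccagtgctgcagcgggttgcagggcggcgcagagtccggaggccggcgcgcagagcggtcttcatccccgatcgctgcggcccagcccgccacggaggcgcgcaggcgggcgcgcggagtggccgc
Etv5, downstream start, chr16:22438319-22438618, minus strand: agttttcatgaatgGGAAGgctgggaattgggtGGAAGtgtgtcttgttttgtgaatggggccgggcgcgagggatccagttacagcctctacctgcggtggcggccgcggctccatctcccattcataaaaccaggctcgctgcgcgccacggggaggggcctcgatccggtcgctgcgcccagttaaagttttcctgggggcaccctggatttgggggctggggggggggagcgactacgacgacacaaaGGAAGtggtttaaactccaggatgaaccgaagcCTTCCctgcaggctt
Spry2, chr14:105896770-105897069, minus strand: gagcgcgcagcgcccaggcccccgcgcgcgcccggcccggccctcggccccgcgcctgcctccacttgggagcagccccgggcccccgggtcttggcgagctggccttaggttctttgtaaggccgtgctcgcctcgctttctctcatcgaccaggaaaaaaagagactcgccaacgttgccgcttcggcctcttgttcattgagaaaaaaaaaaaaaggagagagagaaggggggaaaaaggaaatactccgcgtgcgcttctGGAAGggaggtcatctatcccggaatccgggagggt
Of the 7 genes, 5 had entries among the RefSeq promoters, 6 starts in all (Etv5 has 2). GGAAG or its reverse complement was found in 4 of these 6 and in 71.4% of all 32851 promoters of the same length. Dusp6 held 2 matches, both on the opposite strand, the downstream Etv5 start held 4 and Spry2 held 1, while the other Etv5 start held none. The longer CCGGAAG (8.86% of all promoters, and a motif that contains GGAAG), the cyclic AMP element TGACGTCA (1.79%), the AP-1 element TGANTCA (7.81%) and the serum response element, or CArG box (1.63%), searched on both strands, were found in 0 of the 6. A match is a description of letters and not a binding site. The GC content was 57.3% for Dusp6, 74.0% and 60.0% for the Etv5 starts and 62.7% for Spry2, against a median of 52.7% over all promoters.

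Transcripts of Dusp6, Etv5 and Spry2 rose in Hyp kidneys, by 1.79-fold, 2.10-fold (or 1.52-fold by another probe set) and 1.40-fold on average over diet and sex, 12 pools against 12. No member probe set fell. Of the 21 probe sets, 14 passed the filter on dim signals, which asked that the signal exceed the array's median on 3 or more of 24 arrays, and all 7 genes kept at least 1. Of the 14, 4 rose and 0 fell by limma's moderated test with Benjamini-Hochberg adjustment over 28026 probe sets at 0.05, whereas 0.856% of all tested probe sets rose. The difference was positive for 13 of the 14 and for 48.9% of all probe sets, with a median of 0.41 on the log2 scale against a median of -0.0041 over all probe sets, and the unadjusted p was below 0.05 for 9 of them and for 10.3% of all probe sets. These counts are descriptions: Etv4 1443381_at (above the median on 4 Hyp and 1 normal arrays) and Spred1 1423161_s_at (3 Hyp and 2 normal) passed the filter through Hyp arrays, so their signs support nothing. Nor are the 14 probe sets separate genes, since 6 are of Spred1 and 2 each of Etv5 and Spry4. The members were also chosen with earlier results of these data known.

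Dusp6 was measured by 1 probe set (1415834_at, 430A), bright on all arrays. In Hyp males it read 1007.8, 986.7 and 1133.4 on low phosphate and 1072.6, 1314.2 and 982.2 on control. In Hyp females it read 1316.9, 1335.0 and 1086.6 on low phosphate and 1067.2, 1534.6 and 1234.0 on control. All 12 Hyp pools lay at or above 982.2, and no diet or sex group of Hyp mice stood clear of another. In normal males the signal was 407.1, 572.9 and 396.5 on low phosphate and 814.1, 606.5 and 511.5 on control. In normal females it was 689.3, 717.3 and 813.6 on low phosphate and 833.4, 768.0 and 895.5 on control. Every Hyp pool was above every normal pool: the lowest Hyp value was 982.2 and the highest normal value 895.5. Such a separation of 12 from 12 was seen for 10 of 28026 probe sets, 0.0357%. The means were 1173 ± 173 in Hyp pools and 669 ± 169 in normal pools (SD, n = 12 each), a log2 difference of 0.84 ± 0.09 (SE; limma adjusted p = 5.01e-06). Within the pools labelled series 1, 2 and 3 the difference was 0.75, 0.95 and 0.83. Ordered by mean, the highest 4 groups were Hyp females on control (1279 ± 237), Hyp females on low phosphate, Hyp males on control and Hyp males on low phosphate (1043 ± 79.3). After them came normal females on control (832 ± 63.8), normal females on low phosphate, normal males on control and normal males on low phosphate (459 ± 98.9; SD, n = 3 each). Only the step between the 4 Hyp groups and the 4 normal groups separated neighbours whose pools did not overlap.

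Etv5 was measured by 3 probe sets, of which 2 passed the filter. The brighter relative to its chip, 1428142_at on the 430B, read 224.3, 229.6 and 228.4 in Hyp males on low phosphate and 410.6, 300.3 and 314.0 in Hyp males on control. In Hyp females it read 249.3, 219.6 and 239.5 on low phosphate and 186.7, 353.7 and 283.9 on control. The Hyp pools on low phosphate were close together, between 219.6 and 249.3. In normal males it read 103.8, 103.4 and 59.6 on low phosphate and 209.8, 122.1 and 199.4 on control. In normal females it read 100.2, 67.7 and 77.8 on low phosphate and 187.2, 180.0 and 258.8 on control. The 6 normal pools on low phosphate were the lowest of all 24, and the control pools of the 2 genotypes overlapped. The means were 270 ± 64.7 in Hyp pools and 139 ± 65.0 in normal pools (SD, n = 12 each), a log2 difference of 1.07 ± 0.13 (SE; limma adjusted p = 9.91e-05), and 0.85, 1.28 and 1.09 within series 1, 2 and 3. In the order of group means, with Hyp males on control highest (342 ± 60.1) and normal females on low phosphate lowest (81.9 ± 16.6), the single step without overlap lay above the 2 normal low phosphate groups.

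The 430A probe set of Etv5, 1420998_at, was above the array's median on 14 of 24 arrays. It read 178.8, 151.5 and 203.5 in Hyp males on low phosphate, 243.5, 195.2 and 203.2 in Hyp males on control, 224.0, 202.4 and 256.4 in Hyp females on low phosphate and 156.0, 231.6 and 226.6 in Hyp females on control. In normal pools it read 117.6, 91.7 and 90.0 in males on low phosphate, 213.0, 183.5 and 148.4 in males on control, 143.7, 56.9 and 111.0 in females on low phosphate and 204.6, 162.5 and 198.2 in females on control. Again the 6 normal pools on low phosphate were the lowest, and the control pools of the 2 genotypes overlapped. The means were 206 ± 32.6 in Hyp pools and 143 ± 50.7 in normal pools (SD, n = 12 each), a log2 difference of 0.60 ± 0.12 (SE; limma adjusted p = 0.0100), with 0.26, 0.79 and 0.76 within series 1, 2 and 3. The third probe set, 1450082_s_at, was above the median on 2 arrays and was left out by the filter. Its signal was 97.8 to 208.1 in Hyp pools and 39.8 to 142.2 in normal pools, and in a fit with no filter its difference was 0.86 (limma adjusted p = 0.00142).

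Spry2, by 1436584_at on the 430A, read 430.2, 446.9 and 448.3 in Hyp males on low phosphate and 421.0, 323.7 and 406.2 in Hyp males on control. In Hyp females it read 512.1, 466.7 and 427.7 on low phosphate and 819.5, 506.7 and 542.3 on control, so the highest value of all came from 1 female pool on control. Normal males had 327.0, 202.7 and 290.9 on low phosphate and 320.6, 402.2 and 314.9 on control. Normal females had 388.1, 275.9 and 337.1 on low phosphate and 479.2, 381.1 and 373.7 on control. The genotypes overlapped as a whole, with 4 of 12 Hyp pools above the highest normal pool. The means were 479 ± 121 in Hyp pools and 341 ± 70.7 in normal pools (SD, n = 12 each), a log2 difference of 0.49 ± 0.10 (SE; limma adjusted p = 0.00758), and the within-series values were 0.49, 0.50 and 0.47. Neighbours in the order of the 8 group means all overlapped. Another probe set, 1421656_at, was never above the array's median and read 28.4 to 146.5 in Hyp pools and 31.5 to 108.4 in normal pools.

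**Figure D1:**
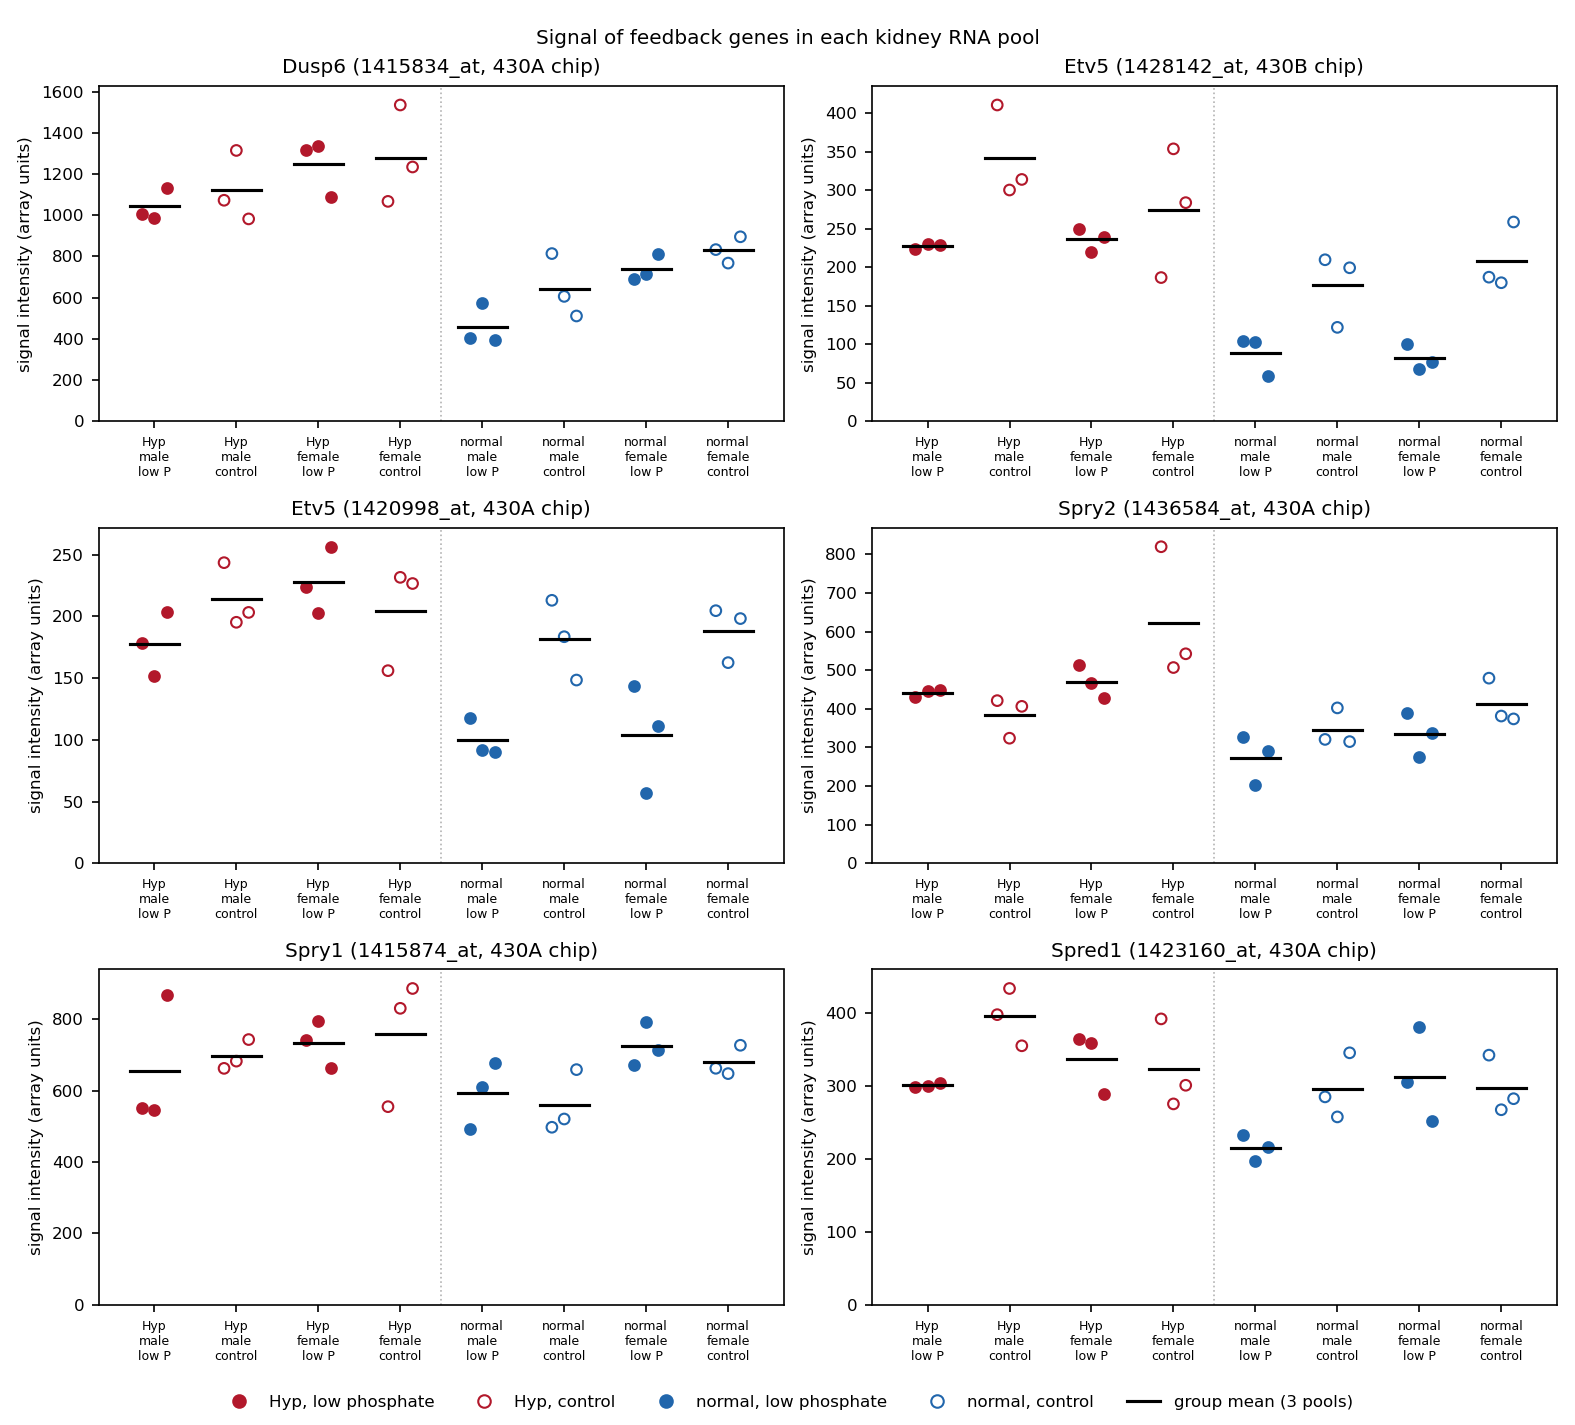
Signal intensity (vertical axes, from 0, in array units) in each of 24 kidney RNA pools for Dusp6, 2 probe sets of Etv5, Spry2, Spry1 and Spred1, by group along the horizontal axis, with low P for the low phosphate diet. Points are pools (red for Hyp, blue for normal, filled for low phosphate, open for control) and black lines are means of 3 pools. All 12 Hyp pools of Dusp6 lie above the 12 normal pools, and for Etv5 the 6 normal pools on low phosphate are lowest.

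The remaining Sprouty genes did not pass the test. Spry1, which is known to restrain growth factor signalling during kidney development, was bright by its 1 probe set (1415874_at, 430A), with genotypes that overlapped: 545.9 to 885.6 with a median of 711.5 in Hyp pools, and 493.6 to 792.0 with a median of 660.5 in normal pools. Its log2 difference was 0.15 ± 0.09 (SE; 95% interval -0.04 to 0.34, limma adjusted p = 0.656). Spry4 had 4 probe sets, of which 2 on the 430B were kept. By 1440867_at the Hyp pools read 90.0 to 215.0 (median 159.2) and the normal pools 48.7 to 165.9 (median 121.6), a difference of 0.50 ± 0.17 that did not pass (limma adjusted p = 0.235). By 1445669_at, above the median on 12 arrays, the Hyp pools read 26.3 to 105.7 and the normal pools 8.5 to 80.2, a difference of 0.72 ± 0.29 (limma adjusted p = 0.369). The intervals of both Spry4 differences lay above 0 before adjustment (0.13 to 0.86 and 0.10 to 1.34), and the ranges of the genotypes overlapped for both, with 6 of 12 and 3 of 12 Hyp pools above the highest normal pool.

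Spred1 had 8 probe sets and 6 were kept, with differences between -0.11 and 0.33. Its brightest 430A probe set, 1423160_at, read 275.1 to 433.0 (median 329.2) in Hyp pools and 196.4 to 379.8 (median 274.6) in normal pools, a log2 difference of 0.29 ± 0.08 that missed the threshold (limma adjusted p = 0.0886). The next 2 probe sets gave like values, 0.33 ± 0.12 for 1428777_at (adjusted p = 0.256) and 0.31 ± 0.11 for 1460116_s_at (adjusted p = 0.290). Lower values came from 1452911_at (0.20 ± 0.13, adjusted p = 0.690) and 1423161_s_at (0.09 ± 0.10, adjusted p = 0.856). The probe set with a negative value, 1443652_x_at, had the widest error of the 6 (-0.11 ± 0.23), and the suffix x marks probes that may also bind other transcripts. Etv4, the other PEA3 factor, was near background: 1423232_at read at most 39.4, and 1443381_at was above the median on 5 arrays, 4 of Hyp pools and 1 of normal pools. That probe set read 5.2 to 77.5 in Hyp pools and 4.8 to 65.3 in normal pools, and its difference of 0.72 ± 0.43 was not separable from 0 (95% interval -0.19 to 1.64, limma adjusted p = 0.641). Among those left out, 1422020_at of Spry4 read 5.5 to 67.6 in Hyp pools and 6.5 to 62.5 in normal pools. Spry4 1422021_at read 6.5 to 73.1 in Hyp pools and 4.6 to 48.8 in normal pools. In the fit with no filter their genotype differences were -0.30 and 0.64 (limma adjusted p = 0.940 and 0.790), and that of Etv4 1423232_at was -0.16 (0.921). For Spred1, 1423162_s_at read 83.1 to 213.9 in Hyp pools and 91.9 to 205.1 in normal pools, while 1445228_at read at most 9.2 in Hyp pools and 10.6 in normal pools. The 7 probe sets left out belong to Etv5 (1), Etv4 (1), Spry2 (1), Spry4 (2) and Spred1 (2), and in the fit with no filter only the one of Etv5 passed.

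**Figure D2:**
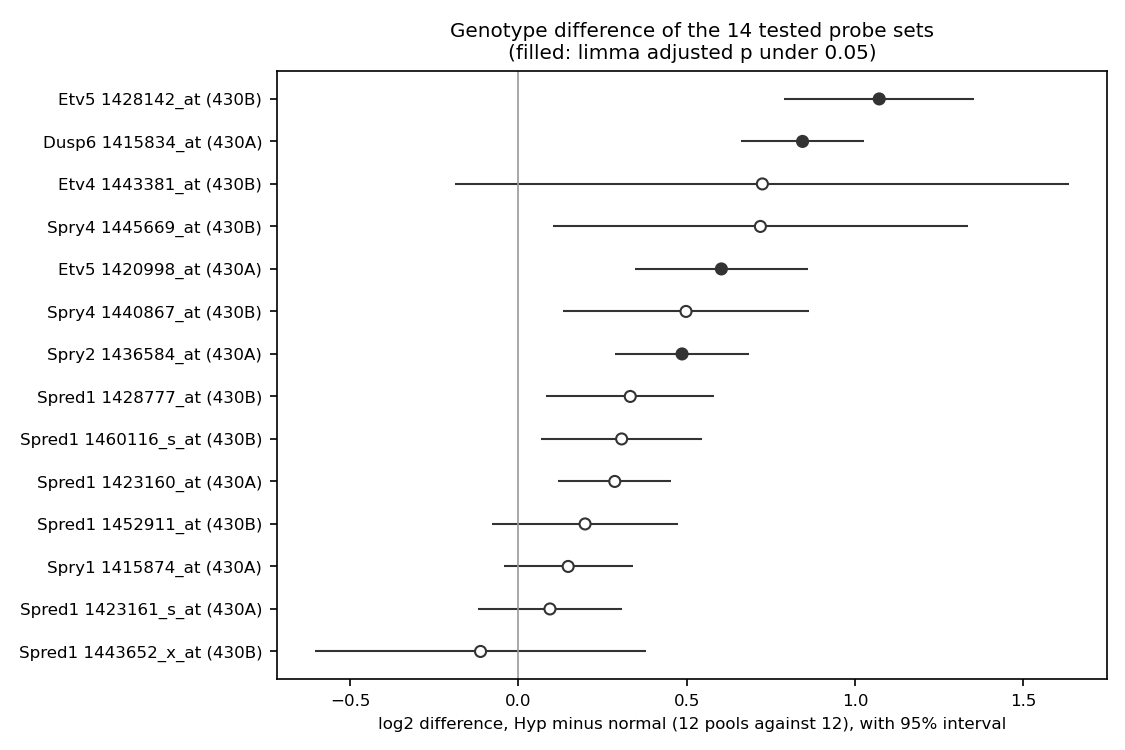
Log2 difference of Hyp minus normal pools (horizontal axis) for the 14 kept probe sets (rows), with points for the estimate of 12 pools against 12 and lines for the 95% interval. Filled points passed limma's adjusted threshold: 2 for Etv5, 1 for Dusp6 and 1 for Spry2, while the open points of Spry4, Spred1, Spry1 and Etv4 did not.

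The genotype difference was next taken within each diet. On low phosphate the same 4 probe sets rose, which 0.4% of all probe sets did: Etv5 by 1.47 ± 0.19 (430B, limma adjusted p = 2.91e-04) and 1.03 ± 0.17 (430A, 0.00360), Dusp6 by 0.98 ± 0.12 (1.61e-04) and Spry2 by 0.61 ± 0.14 (0.0382). For each of the 4, all 6 Hyp pools on low phosphate were above all 6 normal pools on that diet, a separation that 0.346% of all probe sets had. The Spry2 call on low phosphate was lost (adjusted p 0.0506 to 0.112) when any 1 of 11 pools was left out. These were each of the 6 Hyp low phosphate pools, series 2 and 3 of the normal male and of the normal female low phosphate pools, and series 1 of normal males on control. It was also lost with no filter (0.104) and with arrays scaled to 1 median (0.0651).

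On the control diet Dusp6 alone passed, where 0.321% of all probe sets rose. Its pools read 982.2 to 1534.6 in Hyp mice and 511.5 to 895.5 in normal mice, a log2 difference of 0.71 ± 0.12 (SE; limma adjusted p = 0.00557), and it was the 1 member whose 6 Hyp and 6 normal control pools did not overlap (0.171% of all probe sets). Etv5 differed there by 0.67 ± 0.19 (430B, adjusted p = 0.196) and 0.17 ± 0.17 (430A, 0.868), and Spry2 by 0.36 ± 0.14 (0.422). Whether the genotype difference depends on diet is the genotype by diet interaction, which no member passed, as 0.0143% of all probe sets did. The interaction had its smallest p among the members for Etv5: 0.86 ± 0.25 for the 430A probe set (95% interval 0.34 to 1.37, unadjusted p = 0.00238, limma adjusted p = 0.617) and 0.80 ± 0.27 for the 430B probe set (0.24 to 1.37, 0.00798, 0.750). Of the 14 members 2 had an unadjusted interaction p below 0.05, both of Etv5 (5.56% of all probe sets). For Dusp6 the interaction was 0.26 ± 0.18 and for Spry2 0.25 ± 0.19.

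By sex, Dusp6 and Etv5 on the 430B passed in both. In males, where 0.639% of all probe sets rose, they rose by 1.01 ± 0.12 (limma adjusted p = 7.97e-05) and 1.19 ± 0.19 (0.00243). In females, where 0.228% rose, they rose by 0.68 ± 0.12 (0.0103) and 0.96 ± 0.19 (0.0222). The Etv5 call in females was lost (adjusted p 0.0555 to 0.0732) without any 1 of 8 female pools: series 1 or 3 of Hyp on low phosphate, 2 or 3 of Hyp on control, 2 or 3 of normal on low phosphate, and 1 or 2 of normal on control. It was also lost with no filter (0.0535) and with adjustment within each chip (0.0711). Hyp males have no normal copy of Phex and Hyp females have 1. The genotype by sex interaction, called for 0.05% of all probe sets, was passed by no member (2 of 14 at an unadjusted p below 0.05, against 6.25% of all probe sets; smallest adjusted p 0.737). In the smallest strata of 3 pools against 3 the calls thinned out. Males on low phosphate kept 2 member calls (0.189% of all probe sets), those of Dusp6 and of Etv5 on the 430B, the Etv5 value being 1.40 ± 0.27. Females on low phosphate kept 2 (0.0928% of all), both of Etv5, at 1.54 ± 0.27 on the 430B and 1.23 ± 0.25 on the 430A. The calls of Etv5 on the 430B were lost without any 1 Hyp low phosphate pool of that sex or series 2 or 3 of its normal low phosphate pools (adjusted p 0.0543 to 0.157 in males and 0.0560 to 0.0847 in females). In males that call was also lost with no filter (0.0798), with arrays scaled to 1 median (0.0528) and with adjustment within each chip (0.0663). The call of the 430A probe set in females on low phosphate was lost with no filter (0.116) and without any 1 of 14 pools (0.05003 to 0.178). These were the same 5 pools of females on low phosphate and 9 outside that comparison: series 1 and 3 of Hyp males on low phosphate, 2 and 3 of Hyp males on control, 2 and 3 of normal males on low phosphate, 2 of normal males on control, and 1 and 3 of normal females on control. Males on control (0.228% of all) and females on control (0.0714% of all) had 0 by limma, with 5 and 2 of 14 at an unadjusted p below 0.05 (6.38% and 7.80% of all probe sets). Dusp6 stood at 0.82 ± 0.18 in males on control (adjusted p = 0.0533) and 0.61 ± 0.18 in females on control (0.296).

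Etv5 was the 1 member that passed the test for diet. Averaged over genotype and sex, Etv5 on the 430B fell on low phosphate by 0.77 ± 0.13 on the log2 scale (limma adjusted p = 0.00637): 59.6 to 249.3 with a median of 161.7 on low phosphate, and 122.1 to 410.6 with a median of 234.3 on control. It was 1 of 14, where 0.325% of all probe sets fell, and 6 of the 14 had an unadjusted p below 0.05 (9.39% of all probe sets). The 430A probe set of Etv5 was lower by -0.48 ± 0.12 without passing (adjusted p = 0.0905). Dusp6 (-0.19 ± 0.09, adjusted p = 0.499) and Spry2 (-0.21 ± 0.10, 0.512) did not pass, and Spry1 stood at 0.01 ± 0.09. Of the 46 kept cell type markers 2 also rose on low phosphate, Slc26a4 of intercalated cells (0.66 ± 0.06, adjusted p = 5.52e-07) and Slc5a2 of the proximal tubule (0.30 ± 0.06, 0.0231), and 2 fell, Calb1 of the distal convoluted and connecting tubule (-0.77 ± 0.08, 5.76e-06) and Slc22a6 of the proximal tubule (-0.23 ± 0.05, 0.0360). Over all probe sets 0.339% rose on low phosphate and 0.325% fell. The summed intercalated cell signal was 2492 to 3975 on low phosphate and 1958 to 3123 on control. The summed distal signal was 11167 to 14951 on low phosphate and 13007 to 19687 on control. Calb1 alone read 5322 ± 1582 on low phosphate and 8817 ± 1131 on control, and Slc26a4 1653 ± 216 and 1052 ± 166 (SD). Other markers in these sums did not pass. In the distal list Pvalb (0.27), Trpm6 (0.13) and Wnk4 (0.10) were higher on low phosphate and Slc12a3 (-0.07) lower. In the intercalated list Atp6v0d2 (0.19) and Foxi1 (0.17) were higher and Slc4a1 (-0.10) lower. The part of these markers in the Etv5 difference was not tested.

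Taken within genotype, both Etv5 probe sets fell on low phosphate in normal mice, 2 of 14 members where 0.235% of all probe sets fell: the 430B probe set by 1.17 ± 0.19 (limma adjusted p = 0.00545) and the 430A probe set by 0.91 ± 0.17 (adjusted p = 0.0193). With log2(signal + 64) these became -0.77 and -0.60 and still passed. By the 430B probe set the 6 normal pools averaged 85.4 ± 19.6 on low phosphate and 193 ± 44.5 on control, and by the 430A probe set 102 ± 29.5 on low phosphate and 185 ± 25.3 on control (SD, n = 6 each). For both, every low phosphate pool was below every control pool, a separation that 0.268% of all probe sets had. In Hyp mice no member passed (0.0714% of all probe sets fell, and 0 of 14 members had an unadjusted p below 0.05): Etv5 averaged 232 ± 10.8 on low phosphate and 308 ± 74.8 on control by the 430B probe set (-0.37 ± 0.19, 95% interval -0.77 to 0.03), and 203 ± 36.1 on low phosphate and 209 ± 31.8 on control by the 430A probe set (-0.05 ± 0.17, interval -0.41 to 0.31). The test of the difference between the genotypes is the interaction given above, which did not pass. The fall in normal mice and the genotype difference on low phosphate rest on the same 6 normal low phosphate pools. The call of the 430A probe set was lost (adjusted p 0.0589 to 0.0667) without series 2 or 3 of the normal male low phosphate pools, series 1 of the normal male control pools or series 1 of the normal female control pools, and with no filter (0.0628).

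**Figure D3:**
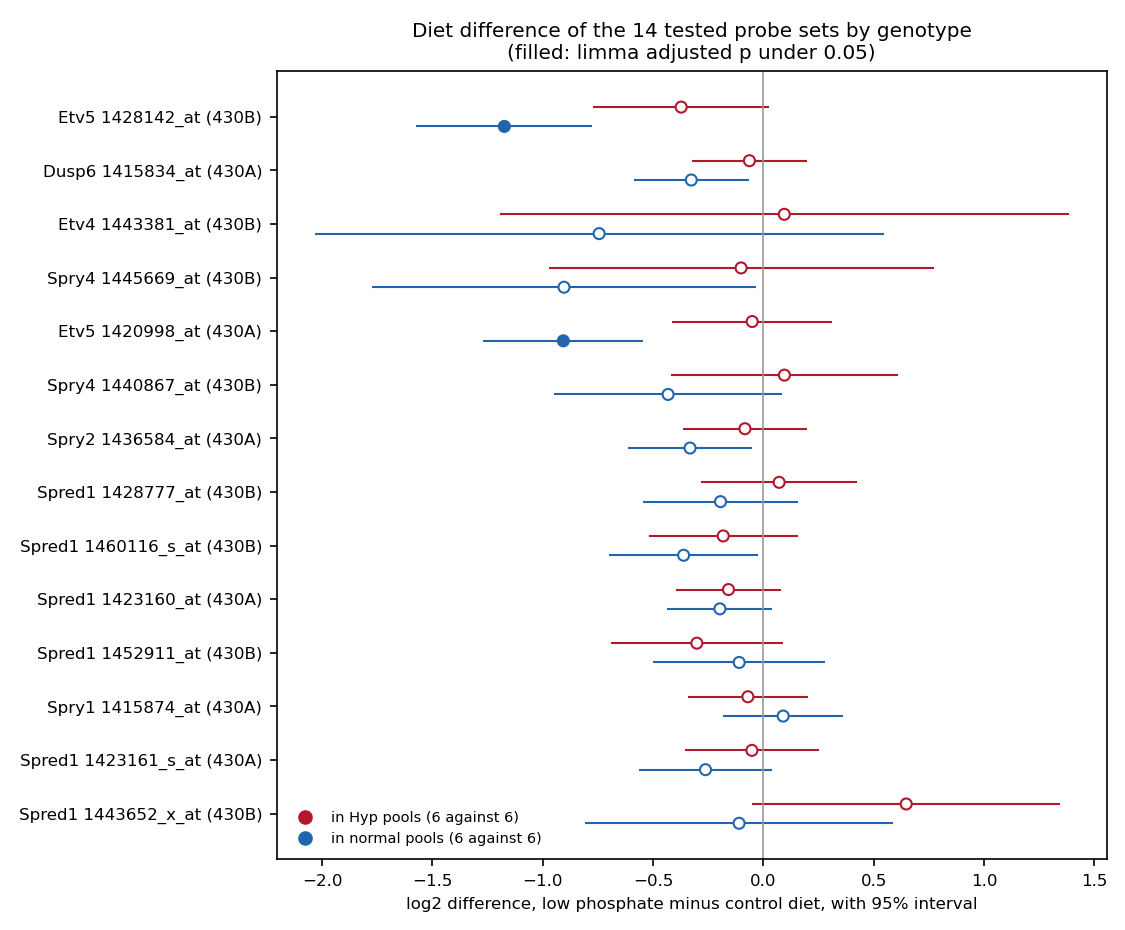
Log2 difference of low phosphate minus control diet (horizontal axis) for the 14 kept probe sets (rows, in the order of the genotype difference), in Hyp pools (red, upper) and in normal pools (blue, lower), with points for 6 pools against 6 and lines for the 95% interval. The filled points, which passed limma's adjusted threshold, are the 2 Etv5 probe sets in normal pools, at -1.17 and -0.91.

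For Dusp6 and Spry2 the estimated differences by sex were smaller than those by genotype, though the sizes were not tested against each other. Dusp6 fell in males by 0.38 ± 0.09 on the log2 scale (limma adjusted p = 0.00451; 817 ± 309 in males and 1024 ± 280 in females, SD, n = 12 each), and Spry2 fell by 0.33 ± 0.10 (adjusted p = 0.0245; 361 ± 75.9 in males and 459 ± 138 in females). These were 2 of 14, where 8.68% of all probe sets fell in males, and 3 of 14 had an unadjusted p below 0.05, against 26.6% of all probe sets. Of 46 kept cell type markers 21 also fell in males and 2 rose, both of the proximal tubule (Slc22a6 by 1.23 and Slc34a1 by 0.24). Those that fell included 3 of 3 podocyte, 3 of 5 endothelial, 2 of 5 fibroblast and pericyte, 2 of 2 smooth muscle and 2 of 2 fat markers. The rest were 2 of 4 thick ascending limb, 2 of 5 distal convoluted and connecting tubule and 2 of 5 principal cell markers. With them came 1 of 4 each for intercalated cells, leukocytes and the proximal tubule. The summed signal of the endothelial markers was 2326 to 3176 in males and 3167 to 3702 in females, and that of the fibroblast and pericyte markers 2892 to 3568 in males and 3531 to 4471 in females. For the thick ascending limb the summed signal was 28068 to 36423 in males and 31454 to 37220 in females. The part of the cell type markers in the sex differences of Dusp6 and Spry2 was not tested. The balance of all sex calls moved with the scaling: 40.8% of the called probe sets were higher in males as deposited, 66.6% with arrays scaled to 1 median and 49.0% after quantile normalization, and Spry2 then missed the threshold (adjusted p = 0.148 and 0.0576). In normal mice Dusp6 alone passed (-0.55 ± 0.12, adjusted p = 0.00668; 5.1% of all probe sets fell) and in Hyp mice no member did (2.65% of all fell; 2 of 14 members at an unadjusted p below 0.05, against 18.2% of all probe sets). Diet by sex and the interaction of all 3 factors were called for 0% and 0% of all probe sets by limma, with 2 and 0 of 14 members at an unadjusted p below 0.05 (5.18% and 3.96% of all probe sets).

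Across the 24 pools the brightest kept probe sets of the members were compared with each other as a description, since pools share genotype, diet and sex. Dusp6 followed Etv5 with a Pearson r of 0.76, Spry4 with 0.69 and Spry2 with 0.63. With the 8 group means taken out, these became 0.38, 0.44 and -0.52. The genes on the same chip whose log2 signals were most like that of Dusp6 were Slc12a3, the sodium chloride cotransporter of the distal convoluted tubule (r = 0.88), Ltc4s, leukotriene C4 synthase (0.87), and Apoc1, an apolipoprotein (0.87). For Etv5 they were Slc13a1, a renal sulfate cotransporter (0.87), Fahd2a (0.86) and Ttr, the thyroxine carrier transthyretin (0.84). For Spry2 they were Rab20 (0.83), Bex4 (0.82) and the calcium-dependent phospholipid binder Anxa4 (0.80). The closest genes were Smarcb1, Ppp4c and Lpp for Spry1 (0.79 to 0.83), Marchf11, 4930478L05Rik and Ssbp1 for Spry4 (0.78 to 0.87), Cbll1, Aldoc and C1galt1c1 for Spred1 (0.72 to 0.75) and Sf3b1, Rora and Copa for Etv4 (0.73 to 0.74).

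Of 20 other genes that ERK is known to induce or that restrain it 13 were kept, 2 rose and 0 fell by genotype, where 0.856% of all probe sets rose, with a median difference of 0.04 (all probe sets -0.0041). The 2 were Dusp4, a nuclear phosphatase of ERK (1.02 ± 0.20, limma adjusted p = 0.00951; 156 ± 47.6 in Hyp pools and 81.6 ± 34.5 in normal pools), and the ERK-responsive Ier3 (0.78 ± 0.09, 2.36e-05; 1928 ± 510 in Hyp pools and 1146 ± 380 in normal pools; SD, n = 12 each). The receptor inhibitor Errfi1 (0.30 ± 0.09, 0.0929) and cyclin D1 (Ccnd1, -0.36 ± 0.09, 0.0511) missed the threshold. Of 14 immediate early genes, which ERK switches on within minutes of a stimulus, 10 were kept and 1 rose (0.856% of all probe sets): Ier2 by 0.33 ± 0.08 (0.0382), while Egr1 stood at -0.04 ± 0.14, 307 ± 84.4 in Hyp pools and 323 ± 104 in normal pools. For diet, 0 of the 13 and 0 of the 10 passed, where 0.339% of all probe sets rose and 0.325% fell. The unadjusted p was below 0.05 for 4 of the 13 and 1 of the 10, against 9.39% of all probe sets. Of the 13, 7 were higher on low phosphate, and the largest fall was that of Dusp4 (-0.61 ± 0.20, limma adjusted p = 0.277).

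Upstream of ERK the transcripts mostly did not pass by genotype, where 0.771% of all probe sets fell. The coreceptor Kl fell in Hyp kidneys by 0.69 ± 0.08 (limma adjusted p = 9.02e-06; 3650 ± 822 in Hyp pools and 5880 ± 1361 in normal pools, SD, n = 12 each) and rose on low phosphate by 0.47 ± 0.08 (adjusted p = 0.00248), as 0.339% of all probe sets did. The 5 FGF receptor genes did not pass, with differences of -0.25 to 0.03 and Fgfr1 at -0.13 ± 0.10. So 1 of the 6 kept receptors and coreceptors was called (2 at an unadjusted p below 0.05, against 10.3% of all probe sets). Among 12 FGF ligands, 3 were kept and 0 called (0 at an unadjusted p below 0.05); Fgf23, a hormone made mainly in bone, read at most 101.9 and was left out by the filter. Of 21 other receptor tyrosine kinases and their ligands 17 were kept and 0 called by limma (0 unadjusted). Of 11 adaptors and exchange factors 10 were kept and 1 fell (2 unadjusted), and of 15 RAS, RAF, MEK and ERK genes 9 were kept and 0 called (2 unadjusted). The adaptor that fell was Frs3, a docking protein of FGF receptors (-0.76 ± 0.17, adjusted p = 0.0184; 158 ± 71.8 in Hyp pools and 238 ± 36.1 in normal pools).

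Of 5 listed transcripts of phosphate transport and vitamin D handling, 4 passed by genotype on average over diets. Among these 1 rose and 3 fell, where 0.856% of all probe sets rose and 0.771% fell. Cyp24a1, which inactivates vitamin D, rose by 1.88 ± 0.14 (limma adjusted p = 2.69e-08). The phosphate cotransporters Slc34a1 and Slc34a3 fell by 0.30 ± 0.06 (adjusted p = 0.00947) and 0.61 ± 0.08 (1.38e-04), while Vdr stood at 0.16. For Cyp27b1, which activates vitamin D, the average over diets was -1.72 ± 0.26 (5.96e-04), but the diets went opposite ways. On low phosphate it read 4.4 to 21.3 in Hyp pools and 161.2 to 435.4 in normal pools, and on control 134.0 to 637.3 in Hyp pools and 42.4 to 108.0 in normal pools, where the difference of 1.59 ± 0.37 did not pass (adjusted p = 0.0669).

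**Figure D4:**
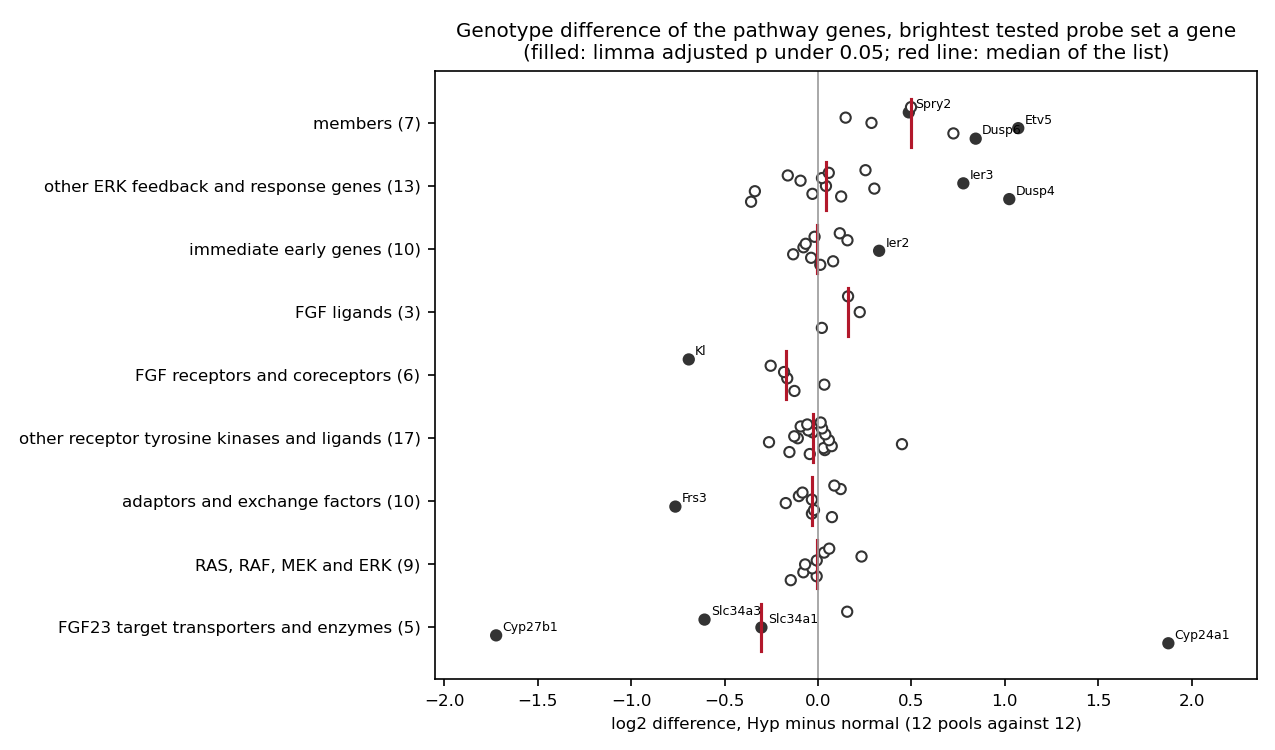
Log2 difference of Hyp minus normal pools (horizontal axis, 12 against 12) for the kept genes of each list (rows, with the number of kept genes), 1 point a gene at its brightest probe set and a red line at the list's median. Filled and named points passed limma's adjusted threshold. The 7 feedback genes have a median of 0.50, FGF receptors and coreceptors one of -0.17 with Kl called lower, and adaptors one of -0.03 with Frs3 called lower.

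Markers of kidney cell types also differed by genotype, beside the changes in Dusp6, Etv5 and Spry2. Over all probe sets 0.771% fell and 0.856% rose. Of 4 proximal tubule markers 3 fell (Slc34a1, also counted above, Slc5a2 by 0.64 and Slc22a6 by 0.23), while Lrp2 stood at -0.06 (limma adjusted p = 0.776). Of 4 kept intercalated cell markers 3 rose (Slc4a1 by 0.42, Atp6v0d2 by 0.32 and Slc26a4 by 0.27), while Foxi1 (0.31, 0.110) did not pass. The summed intercalated signals were 2710 to 3975 in Hyp pools and 1958 to 3469 in normal pools. Of 5 distal convoluted and connecting tubule markers Slc12a3 rose by 0.50 while Calb1 and Pvalb fell by 0.33 and 0.31, and their summed signal was 11167 to 19687 in Hyp pools and 11267 to 19449 in normal pools. Limma called 0 of the kept markers of thick ascending limb (4), principal cells (5), podocytes (3), endothelium (5), fibroblasts and pericytes (5), smooth muscle (2), leukocytes (4), fat (2), adrenal (2) and red blood cells (1), with 1, 2, 0, 1, 0, 0, 1, 0, 0 and 1 of them at an unadjusted p below 0.05. The kept red blood cell marker read 174.6 to 283.0 in Hyp pools and 68.4 to 263.3 in normal pools, and no summed marker level was 0. The part of cell composition in the changes of the feedback genes was not tested.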

How the data were processed

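Labelled RNA of whole kidney, extracted with TRIzol, was hybridised to the 430A and 430B chips. Each deposited number is the signal intensity of a probe set, unlogged, for a single array. The software named is GCOS 1.2, per the submitters' processing notes. Which expression algorithm and scaling target it ran with is not given. The chips share 100 probe sets, and their mean after trimming 2% from either end came to 1200 on all arrays, so the intensity values had been scaled before the authors deposited them. No detection calls were used.

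Symbols came from the platform annotation, updated by Entrez identifier through RefSeq's gene table (35041 probe sets with 1 symbol, 936 with several, 9160 with none). Probe sets brighter than the median of the array on 3 or more of 24 arrays were kept (12924 on the 430A and 15102 on the 430B). Signals below 1 were set to 1 and logged to base 2. Limma 3.58.1 (R 4.3.3) fitted 8 group means to each chip, with moderated tests of contrasts. Benjamini-Hochberg adjustment ran over both chips jointly, at 0.05. After a log2 difference, ± gives its standard error. In data simulated for the genotype comparison with 28026 probe sets, 45% of changes of 0.5 and 78% of changes of 1 (log2) were recovered, with 10 false calls among 133. Alternatives tried were other filters, offsets, scalings, priors, adjustments, 1 probe set a gene, a replicate block and leaving out pools.

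The members and gene lists were chosen with earlier results of these data known. Named were all 7 members with every probe set; for each member the 3 genes on its chip with the highest Pearson r over 24 pools; from each list up to 4 genes with the smallest adjusted p among those past the threshold for genotype or diet; and, whatever their values, Kl, Fgfr1, Fgf23, Egr1, Cyp24a1 and others not reported here. List counts use each gene's brightest kept probe set. Errfi1, Ccnd1, Vdr and single cell type markers were named after their values were seen.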

Additional observations from a re-analysis of the deposited data

Results flagged for a closer look

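Cyp27b1, the enzyme that activates vitamin D, differed between the genotypes in its response to diet, by the test of the difference itself. The genotype by diet interaction was -6.62 ± 0.53 on the log2 scale (SE; limma adjusted p = 8.37e-07). Its signal was 11.6 ± 7.32 in Hyp pools on low phosphate and 259 ± 189 in Hyp pools on control, against 336 ± 102 in normal pools on low phosphate and 76.9 ± 22.2 in normal pools on control (SD, n = 6 each). The Hyp pools on low phosphate (4.4 to 21.3) and the normal pools on control (42.4 to 108.0) lay under the lowest array median of the chip (164.7). Log2 differences against signals this dim give a direction and not a measured size. Every Hyp pool on low phosphate was below every Hyp pool on control (134.0 to 637.3), and every normal pool on low phosphate (161.2 to 435.4) was above every normal pool on control (limma adjusted p = 1.09e-06 and 0.00917). No feedback gene passed this test. Groups of 3 pools are too small for a search for single outlying pools.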

How the results depend on the processing

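The 23 member differences called in any comparison were refitted 816 times under the alternatives tried; 708 fits kept direction and call, 108 lost the call and 0 reversed. The fits of calls within a sex, within a sex and diet, and by sex in normal mice, and those of all 266 member differences with a replicate block, were chosen after seeing the data. With each of 24 pools left out in turn, the genotype calls of Dusp6, Etv5 (both probe sets) and Spry2 were kept. Leaving out a whole series number, which leaves 2 pools a group, ended the genotype call of Etv5 on the 430A in 2 of 3 fits and of Spry2 in 3 of 3, and the diet call of Etv5 on the 430B in 3 of 3; fewer samples are part of that setting. It also ended, in 3 of 3, the calls of Dusp6 on the control diet (adjusted p 0.0678, 0.362 and 0.120) and in females, of both Etv5 probe sets by diet in normal mice, of Spry2 on low phosphate and by sex, and of Etv5 within each sex and within each sex on low phosphate. On low phosphate it ended the call of Dusp6 in 1 fit, of Etv5 on the 430B in 1 and on the 430A in 2, and it ended those of Dusp6 by sex in 1, by sex in normal mice in 1 and in males on low phosphate in 2. The genotype calls of Dusp6 and of Etv5 on the 430B, averaged over diet and sex, and that of Dusp6 in males were kept. Over all leave-one-out fits the counts of called probe sets ranged between 98 and 484 for genotype (456 as reported), 32 and 196 for diet (186), 1929 and 4168 for sex (4109) and 2 and 7 for genotype by diet (4), and the member counts between 2 and 5, 0 and 2, and 0 and 3 (4, 1 and 2 as reported). The low ends came from leaving out a whole series number; with single pools left out the lowest counts were 380, 139, 3576 and 4. For diet the count was 120 with no filter and 282 with a trended, robust prior, and genotype by diet gave 11 with that prior. With 1 probe set a gene the member count for diet was 0, because Etv5 was then taken from the 430A chip. The member count for sex was 1 with no filter, with arrays scaled to 1 median and after quantile normalization. Signs turned for differences that had passed no test: Etv5 on the 430A by sex (-0.08) became 0.019 with median scaling and 0.031 after quantile normalization, and in leave-one-out fits ranged between -0.17 and 0.036. In such fits Etv5 on the 430B by sex ranged between -0.10 and 0.13, the x-suffixed Spred1 probe set by genotype between -0.23 and 0.037, and by diet in Hyp mice Dusp6 between -0.15 and 0.059, Etv5 on the 430A between -0.14 and 0.064 and Spry2 between -0.21 and 0.037. With log2(signal + 64) the differences of dim probe sets shrank by over 1.5 times, as that offset is built to do: by genotype Etv4 to 0.22, Spry4 to 0.33 and 0.26 and the Spred1 probe sets of the 430B to between -0.04 and 0.22, by diet Etv5 on the 430A to -0.32, and the genotype by diet interaction of Etv5 to 0.56 on the 430A and 0.47 on the 430B. With that offset none of the member results refitted changed its call. The cause was otherwise not tested. Signal over background limits Etv4, Spry4 and the dim Spred1 and Etv5 probe sets.

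The labels number the pools as series 1 to 3 in every group. Same-numbered pools of different groups deviated together only weakly (mean r 0.03 over 84 pairs, -0.04 to 0.09, 0 pairs over 0.1), although 20 of 24 pools correlated best with a pool of their own number, a hint from the data and not the design. With the series number as a replicate block, 549 probe sets were called for genotype, 255 for diet, 4551 for sex and 5 for genotype by diet, and the member counts stayed at 4, 1 and 2. Over 266 member differences fitted with the block, 0 calls were lost and 1 was gained, Spry2 by genotype in females (0.54, limma adjusted p 0.0351 with the block and 0.0903 without).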
